A study of Mus musculus with 30 samples.

Results

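Tet1, Tet2, Tet3, Tdg, Dnmt1, Dnmt3a, Dnmt3b, Dnmt3l and Uhrf1, the 9 genes described here, encode the enzymes that write, copy and remove 5-methylcytosine, together with their closest cofactors. They were followed in mouse sperm RNA after injection of tesaglitazar. The group was put together by function and selected on measured values: Tet2 had the second smallest p in the comparison of injected and control males at 24 h, so the values of that comparison are given as a description, without a test. Of the 9 genes, 7 were quantified at 24 h, among 16242 features (genes and families of repeat elements). None of the 9 is among the 3082 features quantified at 46 days.

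DNA methylation is set up by DNMT3A and DNMT3B, which methylate new sites and are stimulated in germ cells by the inactive relative DNMT3L, and it is copied at replication by DNMT1, which UHRF1 brings to sites methylated on the old strand alone. The TET proteins oxidise 5-methylcytosine, and TDG cuts out the most oxidised forms so that base excision repair can put back an unmodified cytosine. Mature sperm hardly transcribe, so their mRNAs are mostly leftovers of spermatogenesis or come from contact with other cells, and a level measured in sperm RNA is not a level of enzyme activity.

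Male mice, 3 months old at the start, received tesaglitazar, an agonist of both PPARα and PPARγ, at 10 µg per kg body weight (Tesa-inj) or DMSO in saline as vehicle (Vehicle-inj) by intraperitoneal injection for 4 weeks. Sperm collected 24 h after the last injection gave 4 Tesa-inj libraries (ai_1, ai_3, ai_5, ai_7) and 4 Vehicle-inj libraries (ai_2, ai_4, ai_6, ai_8) of polyadenylated RNA. Sperm collected 46 days after it gave 7 and 7 libraries of total RNA depleted of rRNA. The libraries held 15337589 to 27709990 estimated counts at 24 h and 4538102 to 13513816 at 46 days.

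At 24 h the libraries had a median Spearman correlation to the others of their group between 0.796 and 0.847. The 5 features with the most counts took 39.4% of all counts in ai_7 and up to 63.0% in ai_4. Levels are given as CPM, the counts of a gene relative to its library's total after scaling by the trimmed mean of M values (TMM). Transcript lengths were not used here, so the levels of the 9 genes are not put in order, and a highest CPM in a list of genes is not a highest number of molecules. All 12 markers of late spermatids and sperm were present in the 24 h libraries. The highest mean CPM was that of Odf1, an outer dense fibre protein of the sperm tail, which ranged from 978 to 3377 CPM. In bulk RNA, fewer cells of a type and less RNA per cell cannot be told apart.

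Tet2 was lower in every Tesa-inj library than in any Vehicle-inj library at 24 h. TET2 is a methylcytosine oxidase best known from blood cells. Its level was 4.19 CPM in ai_1, 3.55 in ai_3, 2.32 in ai_5 and 1.93 in ai_7, all Tesa-inj, against 9.19 in ai_2, 22.7 in ai_4, 7.62 in ai_6 and 7.26 in ai_8, all Vehicle-inj. The groups did not overlap, and ai_4 stood far above the other Vehicle-inj libraries. Behind these levels were 67.5, 81.7, 47.0 and 84.1 estimated counts in the Tesa-inj libraries and 110, 281, 157 and 219 in the Vehicle-inj libraries.

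Averaged over libraries, Tet2 was 3.00 ± 1.06 CPM in Tesa-inj and 11.7 ± 7.40 CPM in Vehicle-inj (SD, n = 4 each), a log2 fold change of -1.97 with a standard error of 0.48 in the edgeR fit over all tested mRNAs and lincRNAs. Library ai_4 widened the difference: without it the log2 fold change was -1.40, and the Vehicle-inj mean of Tet2 was 8.02 ± 1.03 CPM (SD, n = 3). Tesa-inj libraries lay entirely below Vehicle-inj libraries for 218 of 13032 tested mRNAs and lincRNAs (1.67%) and entirely above for 180 (1.38%), and of the 6 tested genes of the group Tet2 was the 1 with such a separation. Since this contrast chose the gene, nothing is read from that count. Of the 13032, 64 had a more negative log2 fold change than Tet2.

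In the order by p, Tet2 stood between RP23-175J8.3, a transcript known only by its clone name, and Cep70, which encodes a centrosomal protein. RP23-175J8.3 ranged from 32.5 to 41.9 CPM in Tesa-inj and from 56.6 to 76.9 CPM in Vehicle-inj. Cep70 ranged from 7.15 to 13.3 CPM in Tesa-inj and from 16.2 to 27.6 CPM in Vehicle-inj. Both were also lower in every Tesa-inj library, with log2 fold changes of -0.84 and -1.18, smaller than that of Tet2.

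Across all 13032 genes the edgeR quasi-likelihood test called 0 (0%) at an adjusted p under 0.05, and DESeq2, limma voom and the edgeR exact test also called 0. An unadjusted p under 0.05 was found for 313 genes (2.4%).

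**Figure D1:**
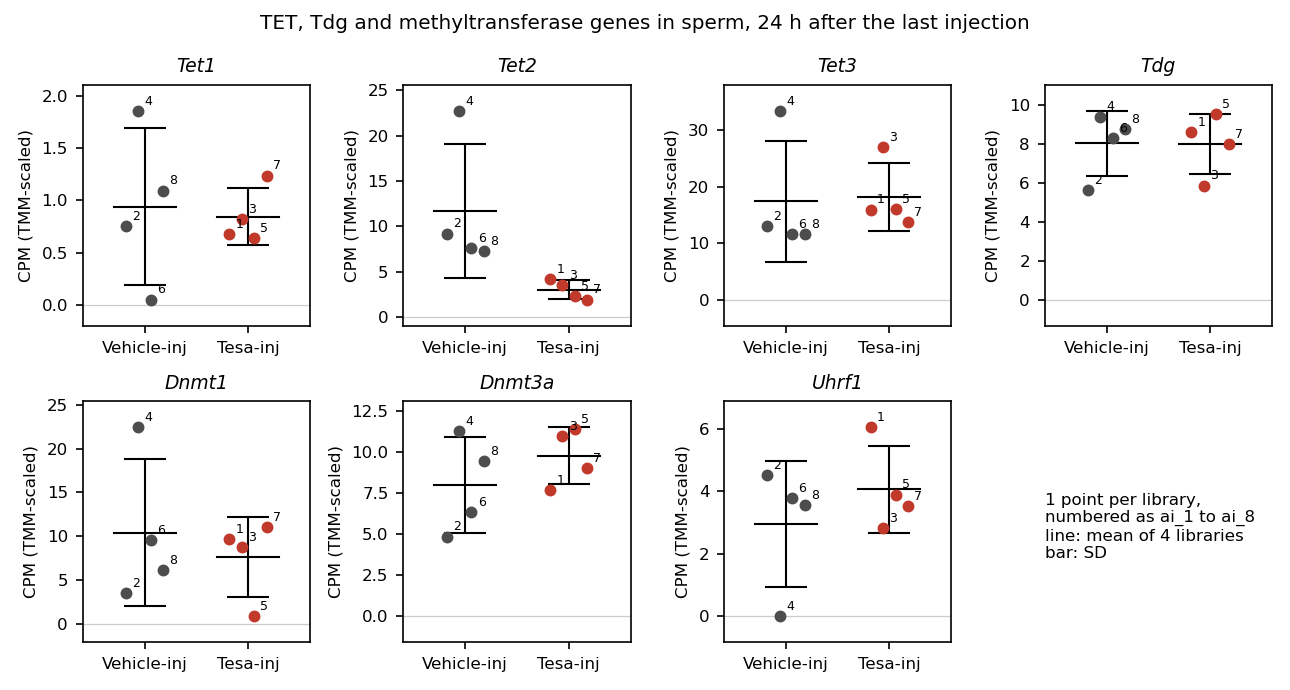
Level of the 7 quantified genes in each sperm library at 24 h, in CPM scaled by TMM, with 1 point per library, a line at the mean and a bar of 1 SD (n = 4 per group). For Tet2, which was chosen by its p in this contrast, the Tesa-inj libraries lie between 1.93 and 4.19 CPM, below all Vehicle-inj libraries. For the other 6 genes the groups overlap.

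Tet3, which encodes the TET protein known for oxidising the paternal genome after fertilisation, did not share this pattern. Its level in the Tesa-inj libraries was 15.9 CPM in ai_1, 27.0 in ai_3, 16.0 in ai_5 and 13.7 in ai_7, and in the Vehicle-inj libraries it was 13.0 in ai_2, 33.4 in ai_4, 11.6 in ai_6 and 11.6 in ai_8. The highest library was again ai_4, followed by the Tesa-inj library ai_3, and the groups overlapped. For Tet3 the log2 fold change was 0.06 with a standard error of 0.40. Its sign depended on single libraries: it was 0.61 without ai_4 and -0.19 without ai_3.

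Tet1, the third oxidase of the family, was close to the limit of these libraries. It had more than 20 counts in 3 of 8 libraries and was left out of the fit. Its level ranged from 0.64 to 1.24 CPM in Tesa-inj and from 0.05 CPM, a single count in ai_6, to 1.86 CPM in ai_4 in Vehicle-inj. The ranges overlapped, and a difference was not tested.

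Read within each library, where the scaling between libraries plays no part, the makeup of the TET counts differed between the groups. This measure was chosen after the values were seen and rests on the same contrast, so it is a description. Tet2 made up 40.1% of the counts of the 3 TET genes in ai_2, 39.2% in ai_4, 39.6% in ai_6 and 36.4% in ai_8. In the Tesa-inj libraries its share was 20.1% in ai_1, 11.3% in ai_3, 12.2% in ai_5 and 11.5% in ai_7. The Vehicle-inj shares lay close together, ai_4 included, and the Tesa-inj library ai_1 stood apart from the other 3 Tesa-inj libraries but below every Vehicle-inj library.

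The ratio of Tet2 to Tet3 counts was 0.627 to 0.710 in Vehicle-inj and 0.131 to 0.262 in Tesa-inj. The high levels of Tet2 and Tet3 in ai_4 thus went together, at a ratio of 0.682. Against each of the other 6 quantified genes, Tet2 counts gave ratios that were lower in every Tesa-inj library for 5 of 6, leaving out libraries with 3 or fewer counts of the other gene, a limit set after the values were seen. The ratios to Tet1 and Uhrf1 therefore rest on 3 Vehicle-inj libraries each. All 6 share the Tet2 counts that chose the gene, so nothing is read from their number. The exception was the ratio to Dnmt1, which was 2.51 in the Tesa-inj library ai_5 and 0.794 to 2.62 in Vehicle-inj.

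**Figure D2:**
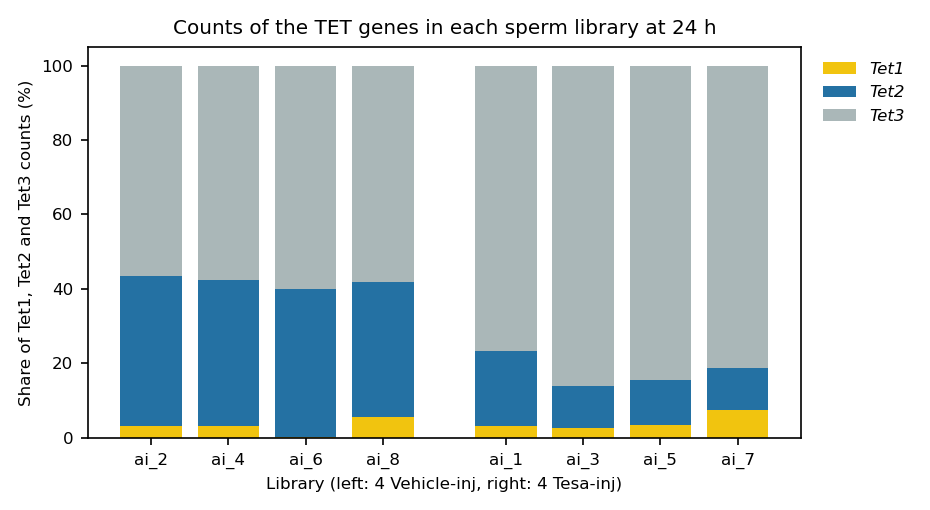
Share of the counts of Tet1, Tet2 and Tet3 that each gene takes, in percent, for each sperm library at 24 h, with 4 Vehicle-inj libraries on the left and 4 Tesa-inj libraries on the right. Tet2 takes 36.4% to 40.1% in Vehicle-inj and 11.3% to 20.1% in Tesa-inj; the counts are not divided by transcript length.

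Tdg, which encodes the glycosylase acting downstream of the TET proteins, had an SD of 20.8% of the mean in the Vehicle-inj libraries, and of 22.6% without ai_4. It ranged from 5.84 to 9.51 CPM in Tesa-inj and from 5.60 to 9.38 CPM in Vehicle-inj. The groups covered nearly the same range, and the log2 fold change was -0.01 with a standard error of 0.31.

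Among the methyltransferases, Dnmt1 and Dnmt3a were quantified at 24 h, whereas Dnmt3b and Dnmt3l were not among the quantified features. Dnmt1, the maintenance enzyme, ranged from 0.94 CPM in the Tesa-inj library ai_5 to 22.4 CPM in the Vehicle-inj library ai_4. The other Tesa-inj libraries held 9.68 (ai_1), 8.78 (ai_3) and 11.1 CPM (ai_7) of Dnmt1, and the other Vehicle-inj libraries 3.51 (ai_2), 9.61 (ai_6) and 6.13 CPM (ai_8). The groups overlapped, although ai_2 and ai_8 lay below 3 of the 4 Tesa-inj libraries. For Dnmt1 the log2 fold change was -0.45 with a standard error of 0.72, and it was 0.27 without ai_4.

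Dnmt3a, a de novo enzyme, ranged from 7.71 to 11.4 CPM in Tesa-inj and from 4.85 to 11.3 CPM in Vehicle-inj. The 2 lowest libraries, ai_2 and ai_6, were Vehicle-inj, and the groups overlapped. Its log2 fold change was 0.29 with a standard error of 0.34, and it lay between 0.13 without ai_2 and 0.53 without ai_4.

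Uhrf1, whose product recruits DNMT1, was present in 7 of 8 libraries. It ranged from 2.81 to 6.04 CPM in Tesa-inj and from 3.55 to 4.51 CPM in 3 Vehicle-inj libraries, and it had 0 counts in the Vehicle-inj library ai_4. A count of 0 in ai_4 allows a level of up to 0.243 CPM, a limit that covers counting error only, and it is below every other library. Its log2 fold change of 0.45 had a standard error of 0.93, and without ai_4 it was 0.06. The library with the most Tet2, Tet3 and Dnmt1 was therefore the 1 library without Uhrf1.

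Over the 6 tested genes of the group, the log2 fold change was above 0 for 3 and below 0 for 3, with a median of 0.03 against -0.01 over all 13032 genes. Scaling by library totals moved that median of all genes to 0.21. Under that scaling the log2 fold change was 0.20 for Tdg and -1.76 for Tet2. A scaling moves all genes about alike, so the sign of a log2 fold change near 0 depends on it. No conclusion is drawn from the numbers of genes above and below 0. The place of the 6 genes relative to the median is a description only, since this contrast chose the group.

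The salmon estimates bear on how exactly these genes can be told from other features, because estimates that are not whole numbers arise where reads were shared out between features. Estimates departed from a whole number by more than 0.01 in 8 of 8 libraries for Dnmt3a, in 7 for Tet2, in 6 for Dnmt1, in 5 for Tdg, in 3 for Uhrf1, in 1 for Tet3 and in 0 for Tet1. Which features shared the reads of Tet2 was not tested. The authors' quantification used the strand of the reads, and in the GRCm38.p6 annotation of RefSeq no other gene overlaps Tet2 (chr3:133463677-133545136). The authors' index was not this annotation and also held piRNA precursors and repeat families. The overlap therefore does not show which features shared the reads.

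The genes whose level followed Tet2 most closely over the 8 libraries were Fbxo39, Ythdc1, Cklf, Thada and B4galnt3, with Pearson's r of log2 CPM of 0.94, 0.94, 0.94, 0.93 and 0.93. They were the top 5 of 8139 mRNAs with a mean within a factor of 4 of that of Tet2, and because the 8 libraries include both groups, the correlation includes the difference between the groups. Ythdc1 encodes a nuclear reader of N6-methyladenosine, Fbxo39 an F-box protein, Cklf a chemokine-like factor and B4galnt3 a glycosyltransferase. Every Tesa-inj library was below every Vehicle-inj library for all 5 genes and ai_4 was the highest, which follows from choosing them by their likeness to Tet2 over these libraries.

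Ythdc1, for example, ranged from 7.57 to 12.1 CPM in Tesa-inj and from 13.0 to 23.8 CPM in Vehicle-inj. Within the group itself, the correlation of Tet2 over the same 8 libraries was 0.45 with Dnmt1, 0.31 with Tet3, 0.08 with Tet1, 0.05 with Tdg, -0.20 with Dnmt3a and -0.69 with Uhrf1. These values moved with ai_4: over the other 7 libraries, computed after the values were seen, they were 0.13 with Dnmt1, -0.44 with Tet3, -0.40 with Tet1, -0.31 with Tdg, -0.72 with Dnmt3a and 0.21 with Uhrf1. Other libraries moved some of them too. Without ai_2 the correlation of Tet2 was 0.31 with Tdg and -0.007 with Dnmt3a. It was 0.56 with Tet1 without ai_6 and 0.20 with Dnmt1 without ai_5.

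Markers of other cells were read beside Tet2, since sperm preparations can carry them, although the sperm had swum out of the tissue and been treated with a lysis buffer for somatic cells. All 12 leukocyte markers were present. Cd52, with the highest CPM at 1029 to 2382 CPM, is also a major product of the epididymis, so the list was also summed without it, a choice made after the values were seen. With Cd52 the sum ranged from 1311 to 2590 CPM in Tesa-inj and from 1224 to 2084 CPM in Vehicle-inj. Without Cd52 it was 226, 240, 164 and 209 CPM in the Tesa-inj libraries ai_1, ai_3, ai_5 and ai_7, and 317, 195, 155 and 180 CPM in the Vehicle-inj libraries ai_2, ai_4, ai_6 and ai_8. The sums overlapped between groups, and ai_4 was not the highest.

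The sum without Cd52 leans on Cd74 and Lyz2, which had the next highest mean CPM, 66.3 and 47.1. Of the 12 leukocyte markers, 5 had a log2 fold change above 0 and 7 below, with a median of -0.11. The lowest was -0.71 for Ptprc (standard error 0.75) and the highest 0.69 for S100a9 (standard error 0.45). These 4 markers are named after their values were seen. The part of leukocyte RNA in the level of Tet2 was not tested.

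Of 12 epididymal markers, 6 were present, and their sum ranged from 389 to 753 CPM in Tesa-inj and from 434 to 1931 CPM in Vehicle-inj, with the highest CPM for Crisp1. Their log2 fold change was above 0 for 2 and below 0 for 4, with a median of -0.36. Library ai_8 had the highest sum, 1931 CPM, against at most 969 CPM in the other Vehicle-inj libraries. For Crisp1 the log2 fold change was -0.75, and between -0.99 and -0.09 without 1 library. Lcn5, Lcn8, Lcn9, Rnase10, Defb21 and Cldn2 were not among the quantified features. For markers of spermatocytes 1 of 7 was present, Piwil1, while the meiotic genes Sycp1, Sycp2, Sycp3, Hormad1, Meiob and Spo11 were not quantified. For spermatogonia 5 of 8 were present, with the highest mean CPM for Uchl1, for Sertoli and Leydig cells 1 of 8, Sox9, and for blood 4 of 5, with the highest mean CPM for Hba-a2. Each of the 4 blood markers had a log2 fold change below 0 (median -0.35), but their sums overlapped between the groups. The sums were 64.7 to 147 CPM in Tesa-inj and 53.5 to 270 CPM in Vehicle-inj, highest in ai_8. For Hba-a2 the log2 fold change was -0.36, and between -0.61 and 0.08 without 1 library. The part of epididymal or blood RNA in the level of Tet2 was not tested. The sum of the 12 late spermatid and sperm markers was lowest in ai_4, at 3977 CPM, and 5709 to 12839 CPM in the other 7 libraries. The part of this low sum in the high Tet2, Tet3 and Dnmt1 of ai_4 was not tested.

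The other genes of the pathway were taken from a list of 65 symbols, of which Vprbp and Dcaf1 are names of 1 gene, a substrate receptor of an E3 ligase that acts on TET proteins. At 24 h, 54 had values and 49 were tested. None had an adjusted p under 0.05 or an unadjusted p under 0.05 in the edgeR test, against 2.4% of all genes with the latter. Their log2 fold changes ran from -0.62 to 0.65, above 0 for 22 and below 0 for 27, with a median of -0.04.

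By function, 3 of 7 tested TET partners were above 0 and 4 below, and 6 and 5 of 11 excision repair genes. For 10 methyl-CpG readers and related genes it was 4 and 6, and for 12 partners of the methyltransferases 4 and 8. For 9 genes of methyl donor supply it was 5 and 4. Of the pathway genes, those with the 3 highest mean CPM were Ogdh, Ehmt2 and Shmt2. Ogdh encodes a subunit of the dehydrogenase that consumes 2-oxoglutarate, the cosubstrate of the TET proteins. It ranged from 45.5 to 98.9 CPM in Tesa-inj and from 71.5 to 121 CPM in Vehicle-inj.

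Ehmt2, which encodes the histone H3 lysine 9 methyltransferase G9a, ranged from 37.0 to 63.2 CPM in Tesa-inj and from 41.3 to 60.8 CPM in Vehicle-inj. Shmt2, a mitochondrial enzyme that feeds the folate cycle, ranged from 46.1 to 80.4 CPM in Tesa-inj and from 36.3 to 48.5 CPM in Vehicle-inj. All 3 overlapped between the groups. Among the 49, the groups did not overlap for 1 gene, Vprbp, named here after its values were seen: 3.35 to 15.1 CPM in Tesa-inj and 16.5 to 19.2 CPM in Vehicle-inj. Over all tested genes such separations made up 1.67% for lower and 1.38% for higher levels in Tesa-inj, so that 1 gene of 49 is close to the background.

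**Figure D3:**
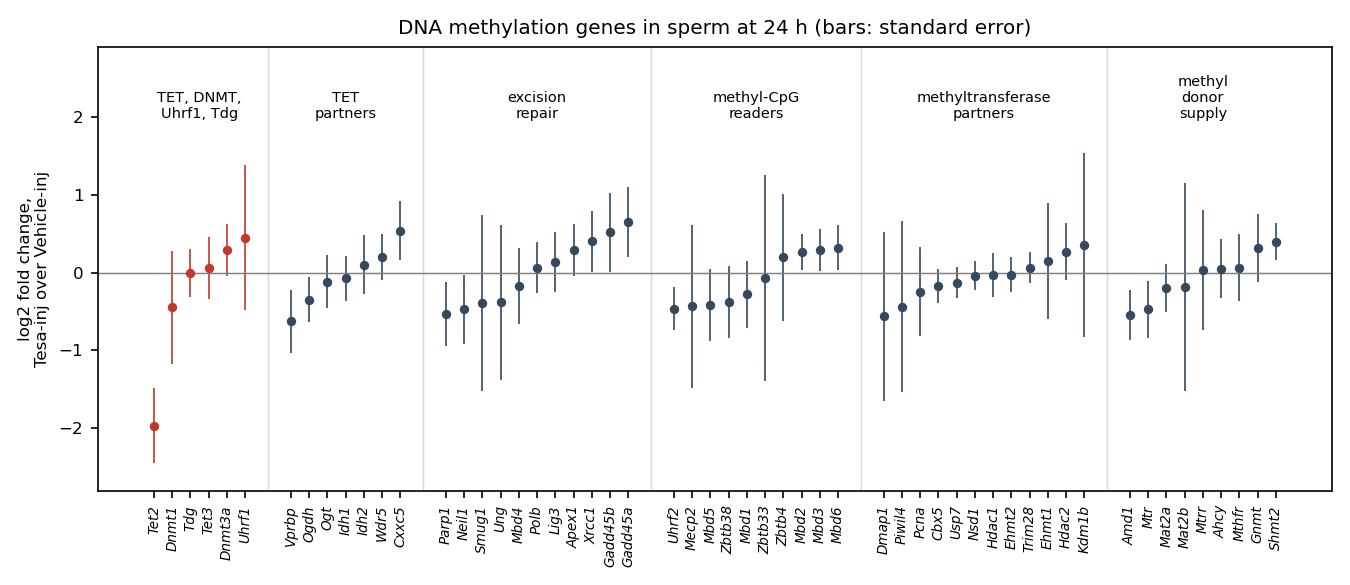
Log2 fold change of Tesa-inj over Vehicle-inj at 24 h for the 6 tested genes of the group and 49 other genes of the pathway, each with its standard error from the edgeR fit (n = 4 per group). Tet2 lies at -1.97, and the 49 pathway genes lie between -0.62 and 0.65. Tet2 was chosen by its p in this contrast and the 49 were not, so nothing is read from the distance.

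At 46 days, when the males had been without tesaglitazar for longer than the treatment had lasted, the planned test of the 9 genes had no gene to run on. Every feature quantified there had more than 20 counts in at least 3 of 14 libraries. The absence was read against genes of similar level at 24 h, a comparison added after it was seen. Of 3676 mRNAs and lincRNAs within 2-fold of the Vehicle-inj mean of Tet3 at 24 h, 27.4% were quantified at 46 days, and for the level of Tet2 it was 21.1% of 4649. For the levels of Dnmt1, Dnmt3a and Tdg the shares were 19.4%, 16.4% and 16.4%, and for Uhrf1 and Tet1 they were 7.44% and 2.86%. Most genes of such levels at 24 h were thus outside the 46 day data, and the 2 time points also differ in how the RNA was selected.

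Libraries KG8-02 and KG8-12 (Tesa-inj) and KG8-14 (Vehicle-inj) stood apart at 46 days. The 5 features with the most counts took 98.8% of all counts in KG8-02 and 30.7% in KG8-14, against a median of 89.4%, and KG8-12 had a median Spearman correlation of 0.601 with the other libraries of its group. Of the 65 pathway symbols, 6 were quantified at 46 days: Ogdh, Vprbp, Usp7, Nsd1, Ung and Mbd6. Usp7 encodes a deubiquitinase that stabilises DNMT1 and UHRF1, Nsd1 a histone H3 lysine 36 methyltransferase, Ung the uracil glycosylase and Mbd6 a methyl-CpG-binding domain protein. The edgeR quasi-likelihood test called none of the 6, as it called 0 of 2262 genes (0%), and no pathway gene had an unadjusted p under 0.05, against 130 of 2262 (5.75%). That number was 71 without library KG8-12 and 86 without KG8-07. Groups that did not overlap were found for 0 genes lower in Tesa-inj (0%) and 1 gene higher (0.0442%), and for none of the 6. The adjusted p of edgeR was 0.999 for each of the 6. DESeq2 and limma voom also called 0 genes, and the edgeR exact test called 12, none of them a pathway gene.

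Ogdh had its lowest levels in the Tesa-inj libraries KG8-02 and KG8-12, 16.3 and 21.3 CPM. Over the group it had a lowest, median and highest level of 16.3, 58.1 and 91.3 CPM in Tesa-inj and of 63.6, 70.7 and 78.4 CPM in Vehicle-inj, so that the Tesa-inj libraries lay on both sides of a narrow Vehicle-inj range. Its log2 fold change was -0.41 with a standard error of 0.32.

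Usp7 had an SD of 14.4% of the mean in Tesa-inj and 15.1% in Vehicle-inj. Its lowest, median and highest levels were 16.6, 20.3 and 24.9 CPM in Tesa-inj and 14.6, 21.3 and 23.5 CPM in Vehicle-inj, with a log2 fold change of 0.03 and a standard error of 0.13. Vprbp had 0, 7.17 and 24.1 CPM in Tesa-inj and 0, 10.5 and 17.1 CPM in Vehicle-inj, and a log2 fold change of 0.26 with a standard error of 0.90. The remaining 3, Nsd1, Ung and Mbd6, are named after their values were seen, and had log2 fold changes of 0.21, 0.16 and -0.17 with standard errors of 0.33, 0.41 and 0.34. Without KG8-12 the log2 fold changes of Vprbp and Nsd1 were -0.13 and -0.15.

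Sperm markers were also present at 46 days, 12 of 12, with the highest mean CPM for Prm2, a protamine, while leukocyte, epididymal, spermatocyte, Sertoli, Leydig and blood markers were not among the quantified features and of the spermatogonial markers Uchl1 was quantified.

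Promoters of all 9 genes were taken from RefSeq (build GRCm38.p6), as windows of 300 bases around 16 start sites. The PPAR core motif AGGTCA, searched on both strands, was found in 3 of the 16 windows, in 1 window each of Tet1, Dnmt3a and Uhrf1, and in 16.3% of all 32851 promoters. The direct repeat of this motif with 1 base of any kind between the copies, which contains the motif, was in 0 of the 16 and in 0.0396% of all. Neither was found in the window of Tet2, which says only that these letters are not in those bases. The RefSeq genes Tet2 and Tet3 reach beyond their windows on the 5′ side, to positions 133545136 and 83457208, as does Dnmt3a, so their outermost 5′ ends were not searched.

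CG dinucleotides, the sites that DNMT1 and the TET proteins act on, were counted after the values were seen. The Tet2 window held 57, the most of the 16, and 99.85% of all promoters held fewer, the median being 7. Dnmt3a followed with 46 and 47 in 2 windows, which 98.35% and 98.56% of promoters did not reach, and held 18 in the other. Dnmt1 held 33, 12 and 2, Uhrf1 33 and 12, Dnmt3b 30, Tdg 26, Tet3 22, Tet1 17, and Dnmt3l 6, 4 and 3. In the Tet2 window 67.8% of bases equal the base 42 positions further on, the mark of a tandem repeat. The windows of Tet2 and Tet3 are shown because the ratio of their counts differed between the groups, in the contrast that chose Tet2. Nothing about that ratio is read from the windows. They are written on the minus strand, 5′ to 3′, with each CG in capitals, at chr3:133544341-133544640 for Tet2 and chr6:83441629-83441928 for Tet3.
Tet2: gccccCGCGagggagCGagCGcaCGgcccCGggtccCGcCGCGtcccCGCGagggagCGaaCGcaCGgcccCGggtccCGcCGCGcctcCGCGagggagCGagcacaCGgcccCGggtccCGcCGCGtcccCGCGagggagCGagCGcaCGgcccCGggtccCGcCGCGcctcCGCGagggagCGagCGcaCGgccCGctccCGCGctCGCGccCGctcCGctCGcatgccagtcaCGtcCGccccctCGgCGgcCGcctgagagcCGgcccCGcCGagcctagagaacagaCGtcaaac
Tet3: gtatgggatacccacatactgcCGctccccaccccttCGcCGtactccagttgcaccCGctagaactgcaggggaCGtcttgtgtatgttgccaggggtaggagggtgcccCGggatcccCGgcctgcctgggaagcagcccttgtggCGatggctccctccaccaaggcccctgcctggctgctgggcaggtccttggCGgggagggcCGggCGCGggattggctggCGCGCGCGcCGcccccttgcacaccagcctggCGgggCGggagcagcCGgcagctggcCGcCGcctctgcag
No methylation was measured in these sperm samples here, so whether these sites were methylated is not part of the data.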

How the data were processed

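Sperm RNA was compared between Tesa-inj and Vehicle-inj males, with groups taken from the sample labels. The authors trimmed single-end reads with Trim Galore 1.16 and quantified them with Salmon 0.11.2 on GRCm38 transcripts, piRNA precursors and repeat families, and the deposited values are estimated counts, not normalized. The tables had been reduced to more abundant features by a filter not given in the sources used here. Names absent from the RefSeq annotation were classed as mRNAs and lincRNAs unless they were repeat families, tRNAs or piRNA precursors.

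Counts were rounded, scaled by TMM over all features and tested in R 4.3.3 by edgeR 4.0.16 (quasi-likelihood), over mRNAs and lincRNAs whose counts exceeded 20 in 4 or more libraries at 24 h and in 6 or more at 46 days (80% of the smallest group), with Benjamini-Hochberg adjustment and a threshold of 0.05. The fit was tested on simulated data. Alternatives were the exact test, DESeq2 1.42.0, voom of limma 3.58.1, other scalings, filters and feature sets, each library left out, and, at 46 days, a term for libraries KG8-11 to KG8-14 or leaving them out. Correlations used log2 CPM with a prior count of 2. Plots were drawn with matplotlib 3.10.9.

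The members and lists were chosen with earlier results of these data known, and the shares and ratios of Tet2, the means without ai_4 and the CG counts were added after the values were seen. Named were each member, the other pathway genes with the 3 highest mean CPM per table and any with an unadjusted p under 0.05, the 5 genes most correlated with Tet2, the neighbours of Tet2 in the order by p, and the gene with the highest mean CPM of each marker list. Labels do not say that each library came from a separate male, so p-values measure the spread between these libraries. Protein sequences, planned for comparison, were not used here, and serum small RNA was not used.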

Additional observations from a re-analysis of the deposited data

Results flagged for a closer look

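Values that stood far from the rest of their group were found in 9 of 86 groups of values checked. The rule gives about 1 in 20 by chance for independent, normally distributed values. Some of these groups share the same counts, so no excess is read from the 9. A further such value, the ratio of Tet2 to Tet1 counts in ai_6, rested on 1 count of Tet1. It was left out by the limit of more than 3 counts, set after it was seen. Library ai_4 of Vehicle-inj at 24 h was high for Tet2, at 22.7 CPM against 9.19 CPM in the next library, and for Tet3, at 33.4 CPM against 13.0 CPM.

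Among the shares of TET counts in Tesa-inj at 24 h, Tet1 took 7.37% in ai_7 and at most 3.39% in the others, and Tet2 took 20.1% in ai_1 and at most 12.2% in the others. The ratio of Tet2 to Tet3 counts, which follows from the same values, was 0.262 in ai_1 and at most 0.145 in the other Tesa-inj libraries. The ratio of Tet2 to Dnmt1 counts was 2.51 in ai_5, the library with the least Dnmt1, and at most 0.430 in the other Tesa-inj libraries.

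At 46 days the Tesa-inj library KG8-12 had 0 CPM of Ung, against at least 5.31 CPM in the other 6. A count of 0 in KG8-12 allows up to 1.19 CPM, a limit that covers counting error only. The sum of the excision repair genes, which is Ung alone at 46 days, was therefore 0 CPM there as well. KG8-12 also had 14.2 CPM of Nsd1 against at most 6.64 CPM.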

How the results depend on the processing

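At 24 h the number of genes past the threshold was 0 under all 9 alternatives and without each library in turn. The log2 fold change of Tet2 was between -1.98 and -1.76 under the 9 alternatives and between -2.16 and -1.40 without 1 library. Under the same alternatives it was 0.44 to 0.89 for Uhrf1 and -0.46 to -0.13 for Dnmt1. For Tet3 it was 0.05 to 0.31, for Dnmt3a 0.28 to 0.50 and for Tdg -0.05 to 0.20. Genes with an unadjusted p under 0.05 at 24 h numbered 646 by limma voom and 142 with library totals, against 313, and Smug1 by voom and Amd1 without ai_4 were the pathway genes among them.

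At 46 days 12 genes passed in the edgeR exact test, the test the paper used. None passed in the other 10 alternatives and without each library. Genes with an unadjusted p under 0.05 numbered 37 with library totals, 76 with a term for KG8-11 to KG8-14 and 46 with KG8-01 to KG8-10 alone, where Ung was among them, against 130. They numbered 71 without KG8-12 and 86 without KG8-07.

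No pathway gene at 46 days was past the threshold under any alternative, but some signs turned. Library totals moved the median of all genes from 0.03 to -1.03, and log2 fold changes were -0.88 for Usp7, -1.73 for Vprbp, -1.18 for Ung and -0.92 for Nsd1. With limma voom they were -2.47 for Vprbp and -0.0311 for Ung. With KG8-01 to KG8-10 alone they were -0.21 for Vprbp, 0.35 for Mbd6 and -0.19 for Nsd1. Without 1 library the range was -0.0535 to 0.0475 for Usp7, -0.13 to 0.52 for Vprbp and -0.15 to 0.29 for Nsd1, and with no change of sign 0.02 to 0.30 for Ung and -0.41 to -0.04 for Mbd6. The cause was not tested.

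Among the 7 quantified members, depth limits Tet1 most at 24 h, with 1 to 54 counts per library, and at 46 days library KG8-02, where 3 counts correspond to 3.49 CPM.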
